A study of Mus musculus with 4 samples.

Results

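CA2 pyramidal neurons were taken as the nuclei that carried RNA of a set of 6 genes known from CA2, with little RNA of the genes that mark granule cells and interneurons. A barcode was kept when it held at least 5000 unique molecular identifiers (UMIs, 1 per captured RNA molecule). It also had to hold at least 3 of Amigo2, Rgs14, Map3k15, Cacng5, Ntf3 and Vit, with at least 6 UMIs of these genes together. Prox1 was limited to 1 UMI, and Gad1 and Gad2 together to 1 UMI. The rule found 232 nuclei among 32572 barcodes of at least 5000 UMIs, with 52 and 67 in the Control libraries and 52 and 61 in the Kat6a-cKO libraries. The measured levels of these genes chose the nuclei, so they are given as a description and none of them was tested.

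The libraries came from single-nucleus RNA sequencing (10x Genomics Chromium) of hippocampus from adult mice, with 2 libraries per genotype. Control mice were Kat6a-f/f, with a floxed Kat6a gene. Kat6a-cKO mice were NEX-cre, Kat6a-f/f, so both groups carried the floxed alleles and the Kat6a-cKO group also carried cre. NEX is another name for Neurod6, and cre driven from this locus acts in forebrain excitatory neurons, which include but are not limited to CA2. The labels do not say which mice gave which library, or which exons are removed, and p-values measure the spread between these libraries.

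CA2 is a short stretch of pyramidal neurons between CA1 and CA3. Its neurons are known for a role in social memory, for synapses that resist long-term potentiation when RGS14 is present, for strong mineralocorticoid receptor expression, and for a perineuronal net, a matrix of proteoglycans around the cell body. KAT6A is a histone acetyltransferase. The series title is about RSPO2/Wnt signalling in the neighbouring CA3, and CA2 nuclei are in the same libraries.

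The CA2 nuclei were deeper than most. Their median UMI count was 34048 and 31161 for Control and 27494 and 32399 for Kat6a-cKO, against a median of 13924 to 14666 over all nuclei of a library. The 6 genes of the rule gave between 6 and 29 UMIs per nucleus, with a median of 9. All 6 were present in 22 nuclei and exactly 3 in 69 nuclei. The counts summed over CA2 nuclei were 1738293 and 2168267 in the Control libraries against 1459130 and 2032422 in Kat6a-cKO. When each barcode was thinned to 5000 UMIs, 3 nuclei met the rule, so the number of nuclei found depends on their depth. No CA2 barcode was shared between libraries, and each pair of libraries shared between 15 and 20 barcodes among all their nuclei.

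**Figure D1:**
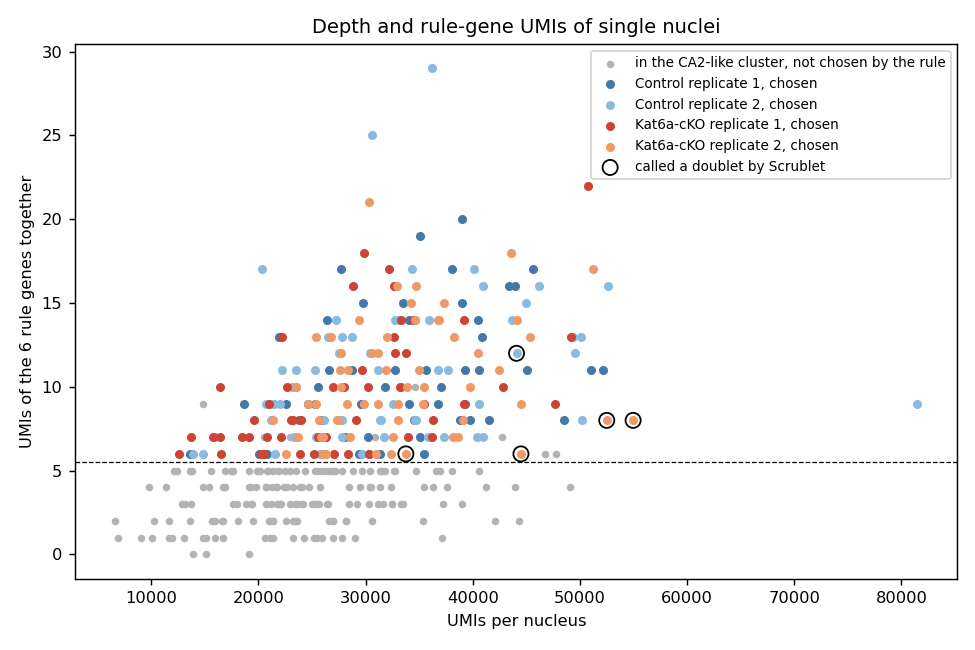
UMIs of the 6 rule genes together (y axis) against all UMIs of the nucleus (x axis), 1 point per nucleus. Coloured points are the 232 chosen nuclei by library, grey points the 176 other nuclei of the CA2-like cluster, ringed points the 5 chosen nuclei called doublets, and the dashed line the minimum of 6 UMIs; the grey nuclei lie mostly under the line and at lower depth.

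The rule genes themselves are described only, since they chose the nuclei. Amigo2, a cell adhesion molecule, had a UMI in 92.7% of the CA2 nuclei and a mean level of 83.9 CPM (CPM, a gene's counts scaled to 1000000 counts of the class in a library). Rgs14, which limits plasticity at CA2 synapses, had a UMI in 64.2% and Cacng5, an auxiliary subunit of AMPA receptors, in 70.7%. Map3k15, a kinase, was present in 71.1%, Ntf3, the growth factor neurotrophin-3, in 61.6%, and Vit, a matrix protein, in 58.2%. The 6 genes summed to 311 to 341 CPM in CA2 nuclei. In droplets of 100 to 500 UMIs, which hold mostly free RNA, they summed to 89.7 to 99.6 CPM, and in CA1-like nuclei to 13.7 to 16.2 CPM.

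The label was checked with a clustering that left out the rule genes and all other listed genes. Of the 232 nuclei, 225 fell into 1 cluster of 401 nuclei, which was led by Lrp2, Tmem150b, Amigo2 (itself a rule gene), Fyb2 and Htr7. In this cluster 8 of the 16 CA2 genes outside the rule were raised at least 2-fold over the other clusters. All 6 rule genes were raised too, which the rule had fixed, since it chose 225 of the cluster's nuclei by them. The naming step took the list with the larger share raised, the rule genes, and the cluster is called the CA2-like cluster. The other 7 nuclei lay in an unnamed cluster (5) and in a CA3-like cluster (2). The 176 nuclei of the cluster that missed the rule had a lower median UMI count of 23419, with Nr3c2 at 1949 CPM and Ptpn5 at 166 CPM. In the chosen nuclei these levels were 2144 and 192 CPM, and in the remaining nuclei with low Prox1, Gad1 and Gad2 they were 995 and 31.2 CPM.

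The edge of the rule was not sharp. Of 29 nuclei with 6 UMIs of the rule genes, just inside it, 28 lay in the CA2-like cluster. Of 45 nuclei with 5 such UMIs and at least 3 of the genes, just outside it, 30 did. Of 23 nuclei with enough UMIs but only 2 of the genes, 10 did. The rule therefore took a part of the CA2-like cluster, and results are also given for the whole cluster.

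CA2 nuclei made up 0.63% and 0.842% of the nuclei in the Control libraries against 0.616% and 0.771% in Kat6a-cKO. The 95% Wilson intervals ran from 0.48% to 1.07% over the Control libraries and from 0.47% to 0.989% over the Kat6a-cKO libraries, and cover counting error only. The genotypes overlapped, with means of 0.736% ± 0.15 (SD, n = 2) and 0.694% ± 0.11 (SD, n = 2). A two-sided exact permutation test gave p = 0.667, and 2 libraries against 2 cannot give less than 0.333.

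The CA2 character of the nuclei showed in genes that the rule did not use. CA3-like nuclei (2258) and CA1-like nuclei (3307), named from their own markers in the clustering, served for comparison. Clusters that stayed unnamed were in neither class. Among them were clusters of 1579, 825 and 726 nuclei with 2, 3 and 3 of the 8 CA1 markers raised. Col11a1 was among the leading genes of the cluster of 726. The CA1-like values therefore cover a part of such nuclei. Because the rule picked nuclei by expression, levels against these classes are descriptions with no test. A level is not compared between genes, since CPM is not per length.

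Of the 16 listed CA2 genes outside the rule, 10 were higher in CA2 than in CA3-like and CA1-like nuclei in each of the 4 libraries. Over the 10295 genes of at least 5 CPM in 1 of the classes, 10.8% were. Lists, here and below, were counted whole, without that minimum, so their shares and this one cover unlike sets of genes. Nr3c2, the mineralocorticoid receptor, stood at 2372 and 2299 CPM in the Control libraries against 1950 and 1922 CPM in Kat6a-cKO. Its CA3-like and CA1-like levels had means of 967 and 947 CPM, and every CA2 library lay above every library of both other classes. Ptpn5, the phosphatase STEP that acts on synaptic receptors and kinases, stood at 205, 186, 215 and 171 CPM in the 4 libraries, against means of 23.4 CPM in CA3-like and 38.4 CPM in CA1-like nuclei.

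Receptors and secreted factors followed. Avpr1b, the vasopressin receptor tied to CA2 and social behaviour, had 5.75, 9.69, 4.11 and 9.84 CPM in CA2 nuclei, and 18.5% of CA2 nuclei held a UMI. In CA3-like nuclei its mean was 0.311 CPM and in CA1-like nuclei 0.0357 CPM. Fgf5, a fibroblast growth factor, had a mean of 42.6 CPM in CA2, 8.47 CPM in CA3-like and 0.855 CPM in CA1-like nuclei. Ccdc3, a secreted protein, had 67.7, 22.7 and 1.11 CPM in the same order. Necab2, a calcium-binding protein of neurons, had 42.1, 8.2 and 6.94 CPM, and Stard5, a lipid transfer protein, had 131, 25.8 and 12.6 CPM.

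Some genes often used for CA2 did not set these nuclei apart. Pcp4, a calmodulin regulator, had 25.9, 37.8, 27.4 and 23.1 CPM in CA2 nuclei, with a mean of 28.6 CPM against 20 CPM in CA3-like and 29.6 CPM in CA1-like nuclei. The CA2 and CA1-like libraries overlapped. Actn2, an actin cross-linker, had a lower mean in CA2 (20.6 CPM) than in CA3-like nuclei (33.7 CPM). Gsto1 was nearly absent, with a UMI in 0.862% of CA2 nuclei.

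Over all genes outside the rule, listed genes included, 195 were at least 2-fold higher in the mean and higher in every library (1.89% of the genes), and 158 were lower by the same rule (1.53%). The 12 of largest ratio, with 5 added to each CPM, included Lrp2, the endocytic receptor megalin. It had 167, 209, 204 and 202 CPM in CA2 nuclei, between 2.53 and 3.96 CPM in CA3-like and between 0.0661 and 1.2 CPM in CA1-like libraries, and 94.4% of CA2 nuclei held a UMI. Plcxd3, a protein with a phospholipase C domain, had a mean of 366 CPM against 30.2 and 12.6 CPM in CA3-like and CA1-like nuclei. Osbpl3, an oxysterol-binding protein, had 182 CPM against 8.13 and 15.3 CPM. Maml3, a coactivator of Notch signalling, had 365 CPM against 47.3 and 34.8 CPM. Tmem150b, Fyb2, Vcan, Angpt1 (a vascular growth factor), Slc4a4 (a sodium bicarbonate cotransporter), Kcnh8 (a potassium channel), Dock11 and Arg2 (an arginase) completed this set. The ratio covers CA3-like and CA1-like nuclei only, and some of these genes led other clusters too. Plcxd3 was a leading gene of an unnamed cluster of 568 nuclei and Slc4a4 of a granule cell cluster. Kcnh8 was one of a subiculum and deep layer cluster and Vcan of the oligodendrocyte precursor cluster.

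At the low end, Tead1, a transcription factor of the Hippo pathway, had a mean of 9.97 CPM in CA2 nuclei against 387 CPM in CA3-like and 192 CPM in CA1-like nuclei. Ncam1, the neural cell adhesion molecule, had 57.8 CPM against 449 and 568 CPM. Lingo2 had 81.7 CPM against 1049 and 852 CPM, and Nell1, a secreted glycoprotein, had 67.3 CPM against 549 and 915 CPM. Etl4, Slc7a14, Iqgap2 and Cntn3 were the other 4 of the 8 lowest ratios. Cntn3, a contactin, had 55.3 CPM against 424 and 741 CPM, and in all 4 libraries CA2 lay under both classes for each of these 8 genes.

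**Figure D2:**
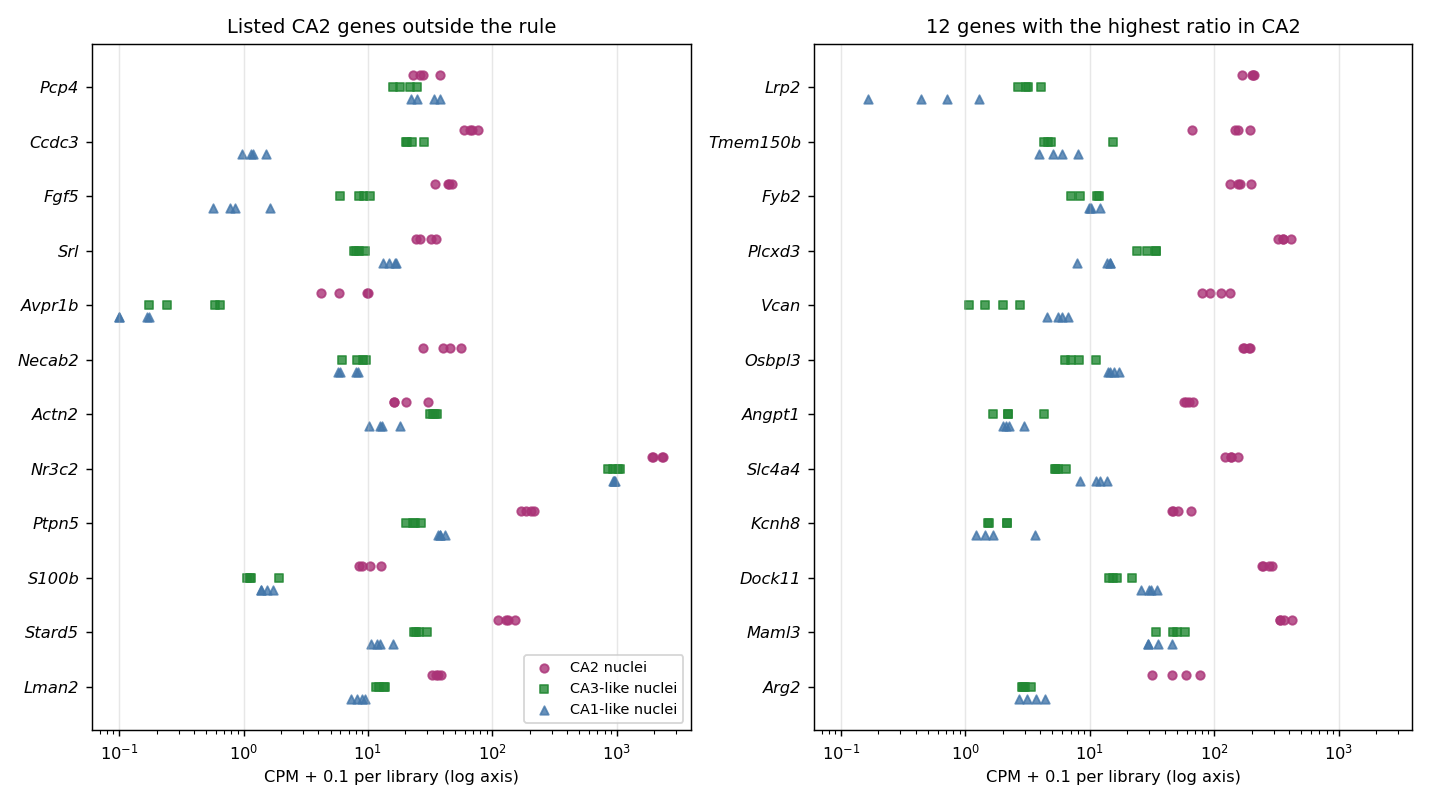
CPM of single genes in CA2, CA3-like and CA1-like nuclei, with 1 point per library (4 per class) on a log axis after adding 0.1. Left, the listed CA2 genes outside the rule with a mean of at least 5 CPM, in which Pcp4 overlaps between classes; right, the 12 genes of largest ratio, in which all CA2 points lie to the right of the other classes.

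The perineuronal net list had genes on both sides. Of its 11 genes, 5 were higher in CA2 in every library and 1 was lower, where 10.8% of all genes compared were higher and 24.0% lower. Acan, the aggrecan core protein, had 35.7 and 30 CPM in the Control libraries against 26.7 and 14.3 CPM in Kat6a-cKO, and at most 0.663 CPM in any CA3-like or CA1-like library. Vcan, the versican core protein, had a mean of 105 CPM against 1.71 and 5.59 CPM. Tnr, or tenascin-R, which ties these proteoglycans together, was the lower one, with 280 CPM against 559 CPM in CA3-like and 716 CPM in CA1-like nuclei.

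Of 35 receptors for neuromodulators and steroids, counted without a minimum level, 7 were higher in CA2 in every library and 7 lower. Of all genes compared, which had that minimum, 10.8% and 24.0% were. Htr7, a serotonin receptor, had 135, 145, 195 and 170 CPM in CA2 nuclei against means of 24.1 CPM in CA3-like and 1.22 CPM in CA1-like nuclei. The adrenergic receptor Adra1a had 1.19 CPM in CA2 and 59 CPM in CA1-like nuclei. The glucocorticoid receptor Nr3c1 had 30 CPM in CA2, 29 CPM in CA3-like and 105 CPM in CA1-like nuclei, so that of the pair of corticosteroid receptors only Nr3c2 was higher in CA2 than in both other classes in all 4 libraries.

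Single ion channel and calcium genes lay on both sides. Kcnk2, a leak potassium channel, had a mean of 229 CPM in CA2 against 26.1 and 50.5 CPM, and Kcnc2, a fast delayed rectifier, had 165 CPM against 1319 and 628 CPM. Camk4, a calmodulin kinase of the nucleus, had 660 CPM against 201 and 152 CPM. Of 33 glutamate receptor and auxiliary subunit genes, 1 (Shisa9) was higher in CA2 in every library and 10 were lower, beside the same 10.8% and 24.0% of all genes. Among these, the kainate receptor gene Grik2 had 857 CPM against 2130 and 1170 CPM. Of the neurotrophin genes, Sorcs2 had 332 CPM against 68.5 and 116 CPM, and its relative Sorcs3 had 25.4 CPM against 202 and 884 CPM.

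Lists of markers of other cells were summed in the same nuclei. The largest sum was that of the subiculum and deep layer list, at 3295 to 3704 CPM in CA2, 3598 to 4380 CPM in CA3-like and 406 to 568 CPM in CA1-like nuclei. In CA2 nuclei Hs3st4 alone gave 3290 to 3701 CPM of it, and Tshz2, of the same list, had 33 CPM in Kat6a-cKO replicate 2 and at most 1.37 CPM in the other 3 libraries. The CA3 list summed to 564 to 680 CPM in CA2 and to 3395 to 3986 CPM in CA3-like nuclei. The inhibitory list summed to between 29.5 and 35.1 CPM in CA2 nuclei and to between 31.9 and 38.4 CPM in CA3-like nuclei, with Pvalb at 0 in CA2. The granule cell list was higher in CA2 (953 to 1061 CPM) than in CA3-like nuclei (299.9 to 382 CPM), and Rfx3 alone gave 719 to 839 CPM. The astrocyte list summed to 280 to 374 CPM, most of it Gpc5 and Slc4a4, while its defining water channel Aqp4 had at most 1.48 CPM. The oligodendrocyte list summed to 160 CPM in Control replicate 1 and to 34.4 to 66.4 CPM in the other 3 libraries. Mobp, an oligodendrocyte gene, had 25.9, 9.22, 0.685 and 2.46 CPM in the 4 libraries. The OPC list owed its level mostly to Vcan, with Cspg4 and Gpr17 at 0. The part of these cells in the levels was not tested.

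Because Nr3c2 was so prominent, the promoters of these genes were searched for the half-site of corticosteroid receptor elements (AGAACA, or TGTTCT on the other strand). RefSeq promoters (GRCm38.p6, 250 bases before to 50 after the start) were found for 25 of the 34 CA2 genes, that is the 6 rule genes, the 16 listed genes and the 12 of largest ratio. None of their 29 promoters held a half-site. Of all 32851 promoters, 19% held one. A search of these windows says only that these letters are not in them.

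Of the 11 genes that changed with genotype (below), 8 had a promoter in the table. Of their 11 promoters 3 (27.3%) held a half-site, beside 19% of all promoters: those of Gm3279 and Plcl1 and 1 of the 2 of Cntn4. The 250 bases before the start are shown for Gm3279, the gene of largest change, at chr6:55684321-55684570 on the plus strand, and for Plcl1, at chr1:55405696-55405945 on the plus strand, both in GRCm38.p6, 5′ to 3′. Capitals mark the half-site, which begins 35 bases before the start of Gm3279 and 182 bases before that of Plcl1. A match is a run of letters and is not shown to be a binding site.
Gm3279: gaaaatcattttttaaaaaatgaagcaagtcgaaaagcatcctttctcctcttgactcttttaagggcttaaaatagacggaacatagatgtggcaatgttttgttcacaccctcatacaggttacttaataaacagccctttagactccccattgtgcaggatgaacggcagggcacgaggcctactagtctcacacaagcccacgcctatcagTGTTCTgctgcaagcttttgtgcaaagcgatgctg
Plcl1: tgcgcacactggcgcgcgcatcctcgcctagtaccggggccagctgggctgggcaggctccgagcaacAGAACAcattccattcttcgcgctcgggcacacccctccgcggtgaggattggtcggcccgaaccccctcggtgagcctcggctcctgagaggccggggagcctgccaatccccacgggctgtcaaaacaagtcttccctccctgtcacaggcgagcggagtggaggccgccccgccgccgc

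The targeted gene came first in the comparison of genotypes. Kat6a had 61.6 and 55.8 CPM in the Control libraries against 60.3 and 49.2 CPM in Kat6a-cKO CA2 nuclei, so the groups overlapped. Its log2 fold change (Kat6a-cKO over Control) was -0.11 ± 0.18 (SE), with adjusted p = 0.962 by the edgeR quasi-likelihood test. Since the removed exons are not given and nuclear RNA holds introns, this level does not check the deletion. The cre entry of the count table had 0 and 0 counts in the Control libraries against 1 and 5 counts in Kat6a-cKO CA2 nuclei. A count of 0 allows up to 3 counts, which is 1.73 and 1.38 CPM in the Control libraries, so cre in CA2 was at the limit of this depth. Over all nuclei of the libraries it had 0 and 0 against 166 and 163 counts.

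In CA2 nuclei, 11 of 9391 genes passed an adjusted p of 0.05 (0.117% of the genes), 10 higher (0.106%) and 1 lower (0.0106%) in Kat6a-cKO. At an unadjusted p under 0.05 there were 623 genes (6.63%), and the libraries of the 2 genotypes did not overlap for 35.9% of the genes. The 5 nuclei called doublets mattered for this count. Of these, 4 lay in Kat6a-cKO replicate 2 and 1 in Control replicate 2, and without them 1 gene passed (0.0109%). Over all 395 nuclei of the CA2-like cluster that were not doublets, 6 genes passed (0.0576%), of which 4 were among the 11. With stricter membership (at least 4 rule genes and 10 UMIs of them, 99 nuclei) 5 genes passed (0.0695%), of which Spon1 and Plcl1 were among the 11. With DESeq2, Ldb2, Cntn5, Ntng1, Col11a1, Rbms1 and Spon1 of the 11 did not pass. Leaving out Control replicate 1, Control replicate 2, Kat6a-cKO replicate 1 or Kat6a-cKO replicate 2 gave 78, 73, 89 and 57 genes, with 1 genotype then resting on a single library.

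Gm3279, a long non-coding RNA gene at chr6:55684571-55694574, was the gene that passed with and without doublets. It had 1 and 1 counts in the Control libraries against 32 and 33 counts in Kat6a-cKO, or 0.575, 0.461, 21.9 and 16.2 CPM. The ratio of the summed counts was 36.4, with an exact 95% interval of 9.67 to 307 that covers counting error only. At least 1 UMI was present in 1 of 52 and 1 of 67 Control nuclei and in 21 of 52 and 23 of 61 Kat6a-cKO nuclei, and the groups did not overlap. Its log2 fold change was 5.02 ± 0.58 (SE, adjusted p = 0.00291) and, without doublets, 5.01 (adjusted p = 0.0131). With stricter membership it was 4.74 and did not pass (adjusted p = 0.0574).

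Gm3279 starts 3308 bases from the start of Neurod6, which lies on the other strand (chr6:55677822-55681263) and encodes a neuronal transcription factor. Its locus carries cre in NEX-cre mice. Only the Kat6a-cKO group carried cre, so effects of the Kat6a deletion and of the cre allele cannot be told apart in any comparison of genotypes here. Neurod6 itself had 62.1 and 81.6 CPM in the Control libraries against 50 and 44.3 CPM in Kat6a-cKO. It was lower in both Kat6a-cKO libraries, with a log2 fold change of -0.63 ± 0.18 (SE) that did not pass the test (adjusted p = 0.356). Neurod6 was also lower in both Kat6a-cKO libraries in CA3-like nuclei (-0.48, edgeR, adjusted p = 0.214) and CA1-like nuclei (-0.51, adjusted p = 0.3), and passed in neither. The log2 fold change of Gm3279 was also large in CA3-like nuclei (4.80, adjusted p = 9.1e-07, where 0.0273% of genes passed) and in CA1-like nuclei (4.99, adjusted p = 2.92e-06, where 0.0407% passed). Its change in CA2 did not differ from either past the threshold, at a difference of 0.35 ± 0.90 and 0.19 ± 0.83 (SE, adjusted p = 1 for both).

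Spon1, the secreted matrix protein F-spondin (chr7:113765998-114043370), was the gene that fell. It had 151 and 106 CPM in the Control libraries against 58.9 and 30.5 CPM in Kat6a-cKO, without overlap. In single nuclei, 88.5% and 67.2% of Control and 50% and 45.9% of Kat6a-cKO CA2 nuclei held a UMI, with medians of 4, 3, 0.5 and 0 UMIs per nucleus. The log2 fold change was -1.56 ± 0.24 (SE, adjusted p = 0.0175), and it ran from -2.06 without Kat6a-cKO replicate 1 to -1.11 without Kat6a-cKO replicate 2. Without doublets it was -1.71 (adjusted p = 0.175), and in the whole CA2-like cluster -1.54 (adjusted p = 0.063), so that the call ended in both. With DESeq2 it was -1.53 and did not pass (adjusted p = 0.922). With stricter membership it was -1.95 (adjusted p = 0.00268).

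Zfpm2, a cofactor of GATA transcription factors (chr15:40655035-41104592), overlaps the predicted genes Gm49525, Gm49526 and Gm49524. It had 145 and 125 CPM in the Control libraries against 256 and 232 CPM in Kat6a-cKO. The share of nuclei with a UMI was 76.9% and 71.6% in the Control libraries against 90.4% and 100% in Kat6a-cKO, with medians of 2.5, 2, 5 and 6 UMIs. It rose by 0.85 ± 0.12 on the log2 scale (SE, adjusted p = 0.0128), and in the whole cluster by 0.73 (adjusted p = 0.0131). Without doublets its log2 fold change was 0.89 (adjusted p = 0.0761), and with stricter membership 0.60 (adjusted p = 0.405).

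Col11a1, Tnr and Plcl1 were also called higher. Col11a1, a collagen chain (chr3:114030540-114220718), had 166 and 143 CPM in the Control libraries against 415 and 257 CPM in Kat6a-cKO, a log2 fold change of 1.11 (adjusted p = 0.0175). Tnr (chr1:159523769-159931729), the net protein named above, had 214 and 221 CPM in the Control libraries against 324 and 362 CPM in Kat6a-cKO (0.65, adjusted p = 0.0188). Plcl1, an inactive relative of phospholipase C that binds inositol phosphates (chr1:55405921-55754285), had 734 and 727 CPM in the Control libraries against 977 and 1141 CPM in Kat6a-cKO (0.53, adjusted p = 0.0175). With DESeq2 Col11a1 did not pass (1.12, adjusted p = 0.802), and its log2 fold change ran from 0.74 without Kat6a-cKO replicate 1 to 1.43 without Kat6a-cKO replicate 2. Without doublets the log2 fold changes of Col11a1, Tnr and Plcl1 were 1.16, 0.62 and 0.59, with adjusted p of 0.0632, 0.0805 and 0.0761. In the whole cluster they were 1.12, 0.61 and 0.54, with adjusted p of 0.00483, 0.0177 and 0.111. With stricter membership they were 0.66, 0.55 and 0.65, with adjusted p of 0.403, 0.318 and 0.00587.

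The other 5 genes called higher shrank when the doublets were left out. The 4 doublets in Kat6a-cKO held 63.2% of the Kat6a-cKO counts of Ldb2, a cofactor of LIM-domain transcription factors, 45.9% of those of Cntn5 and 38% of those of Cntn4, both contactins. They held 27.8% of those of Ntng1 (netrin-G1) and 13.1% of those of Rbms1, an RNA-binding protein. The log2 fold change of Ldb2 went from 2.34 (adjusted p = 0.047) to 1.04 without doublets (adjusted p = 0.758) and 0.23 in the whole cluster (adjusted p = 0.961). Leaving out Kat6a-cKO replicate 2 gave Ldb2 1.41 and ended the call (adjusted p = 0.275), and leaving out Kat6a-cKO replicate 1 gave 2.84. That of Cntn5 went from 1.80 (adjusted p = 0.0128) to 1.10 (adjusted p = 0.76) and 0.06 (adjusted p = 0.987), and that of Cntn4 from 1.46 (adjusted p = 0.0103) to 0.87 (adjusted p = 0.837) and 0.57 (adjusted p = 0.855). Ntng1 and Rbms1 went from 1.17 and 1.09 (adjusted p = 0.0175 and 0.0364) to 0.86 and 0.98 without doublets (adjusted p = 0.609 and 0.341) and to 0.45 and 0.35 in the whole cluster (adjusted p = 0.82 for both). A UMI of Cntn5 was in 32.7% and 25.4% of Control and 30.8% and 31.1% of Kat6a-cKO nuclei. For Cntn4 these shares were 44.2%, 41.8%, 53.8% and 39.3%, and for Ldb2 17.3%, 16.4%, 32.7% and 29.5%. In Kat6a-cKO replicate 1, which held no doublets, 1 nucleus gave 19 of 50 Cntn5 counts and 1 gave 37 of 162 Cntn4 counts. The summed level of the CA1 marker list in Kat6a-cKO replicate 2 was 365 CPM with the doublets and 262 CPM without them, against 275 to 316 CPM in the other 3 libraries without doublets.

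**Figure D3:**
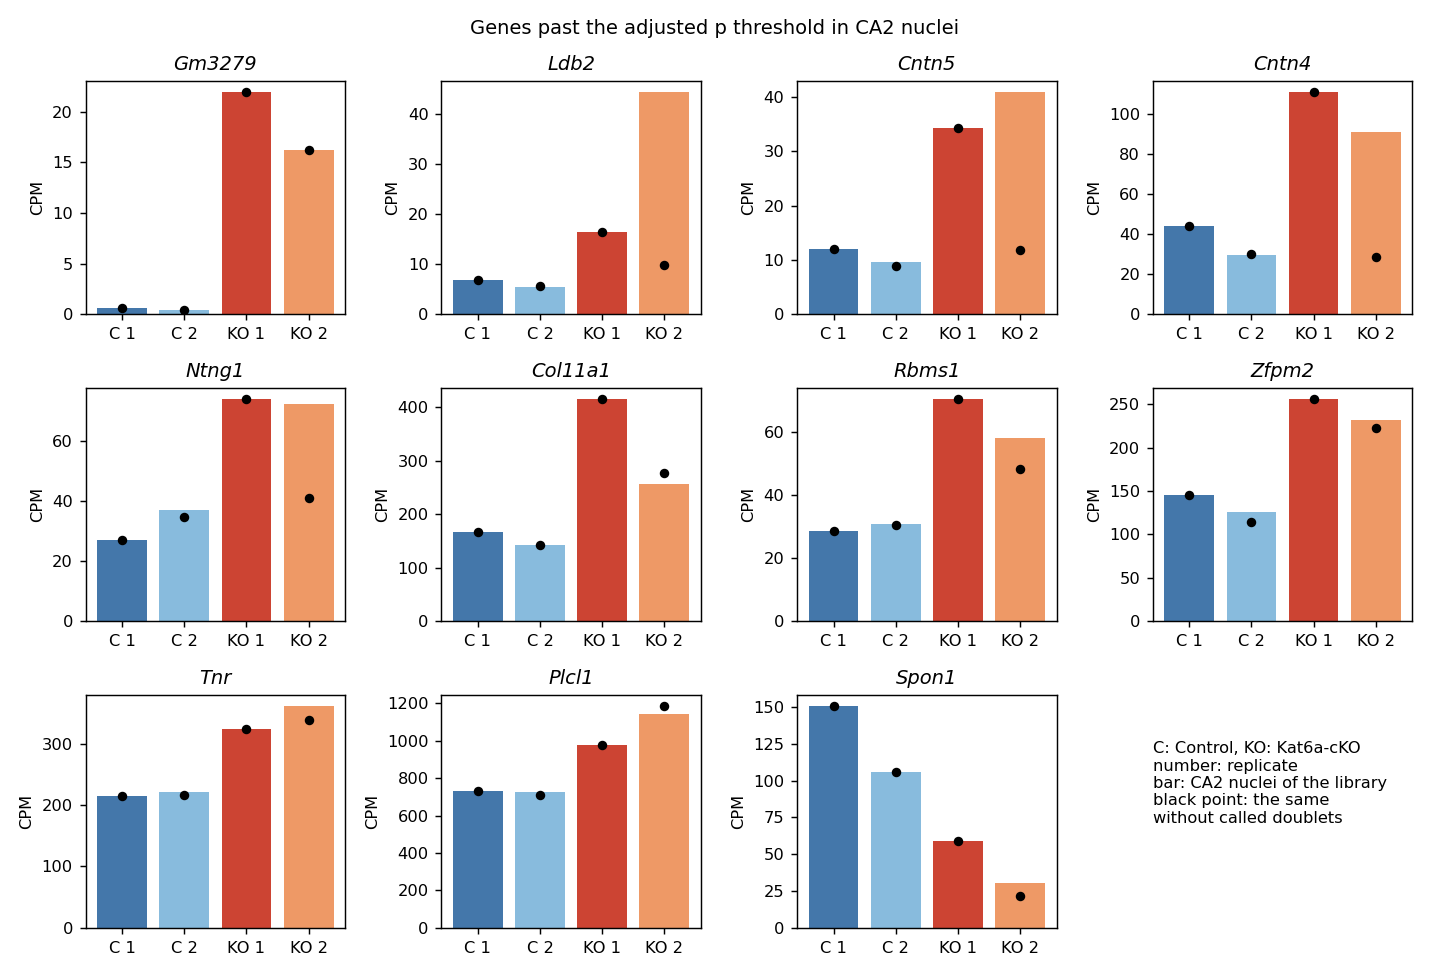
CPM of the 11 genes past the adjusted p threshold in CA2 nuclei of each library (bars, axes from 0), with the level without called doublets as a black point. Ldb2, Cntn5 and Cntn4 drop in Kat6a-cKO replicate 2 when doublets are left out, while Gm3279, Zfpm2, Col11a1 and Plcl1 hardly move.

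**Figure D4:**
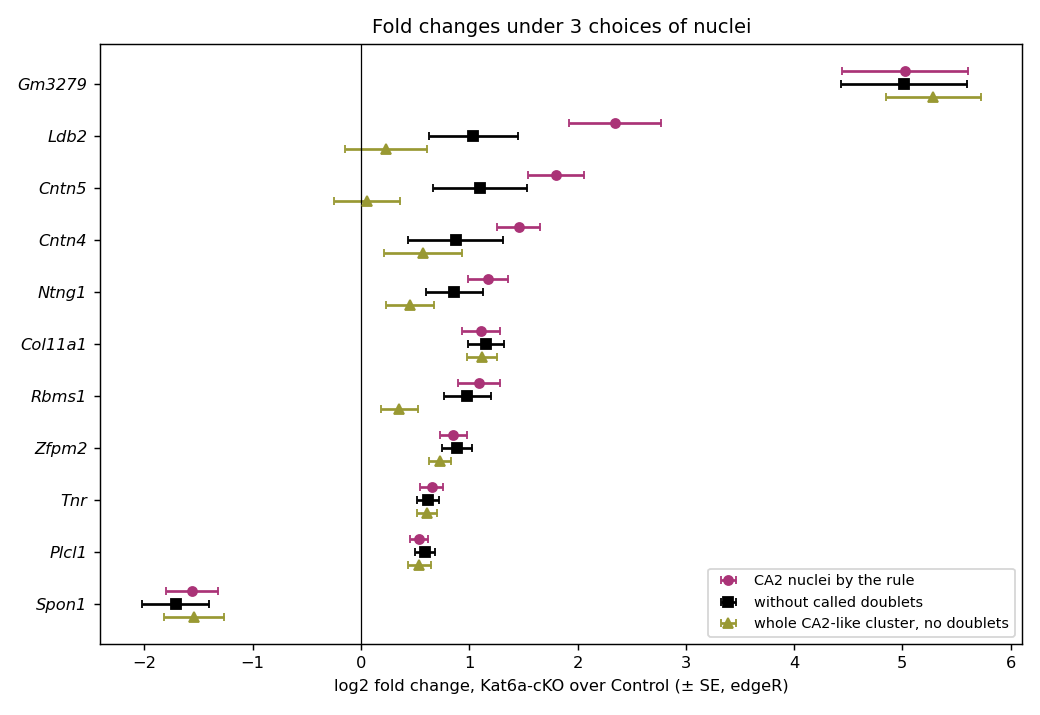
Log2 fold change (± SE, edgeR) of the same 11 genes for the nuclei of the rule (circles), the same without doublets (squares) and the whole CA2-like cluster without doublets (triangles). The 3 estimates lie together for Gm3279, Col11a1, Zfpm2, Tnr, Plcl1 and Spon1 and apart for Ldb2, Cntn5 and Cntn4.

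None of the tested genes of the CA2 list passed between genotypes, and the 6 rule genes were not tested. Of the 16 listed CA2 genes outside the rule, 12 were expressed highly enough to be tested and none passed, with a median log2 fold change of -0.14 against -0.00 over all genes tested. At an unadjusted p under 0.05, 1 was higher (3.17% of all genes were) and 1 lower (3.46%). The higher one was Actn2 (0.61 ± 0.28, SE, adjusted p = 0.74) and the lower one Nr3c2, whose Kat6a-cKO libraries both lay under the Control libraries given above, with a log2 fold change of -0.27 ± 0.06 (SE, adjusted p = 0.155). Ptpn5 had a log2 fold change of -0.03 ± 0.13 (SE, adjusted p = 0.988), and Lrp2 one of 0.10 ± 0.13 (SE, adjusted p = 0.95).

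Of the perineuronal net list, 7 of 11 genes were tested and Tnr was the 1 that passed, beside 0.106% of all genes that passed as higher. At an unadjusted p under 0.05, 2 of the 7 were higher and 3 lower, beside 6.63% of all genes in either direction. The tested members ran from -0.83 to 0.65, with a median of -0.08. Bcan, or brevican, had 28.8 and 21.2 CPM in the Control libraries against 11.6 and 15.7 CPM in Kat6a-cKO (-0.83 ± 0.28, SE, adjusted p = 0.481). Acan had a log2 fold change of -0.72 ± 0.28 (SE, adjusted p = 0.588). Both were lower in both Kat6a-cKO libraries, as were 17.7% of all genes, and neither passed. Ptprz1, a receptor phosphatase that binds Tnr, had 48.9 and 40.6 CPM in the Control libraries against 63.1 and 63 CPM in Kat6a-cKO (0.50 ± 0.18, SE, adjusted p = 0.502). It was higher in both Kat6a-cKO libraries, as were 18.2% of all genes, and did not pass.

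Of the receptor list 12 of 35 genes were tested, of the potassium and HCN channel list 31 of 35, and of the glutamate receptor list 25 of 33. Of the calcium list 26 of 30 were tested, and of the G protein regulators 14 of 19. None of these genes passed in the main edgeR fit or DESeq2. At an unadjusted p under 0.05 in edgeR, 6, 4, 4, 5 and 2 of them were found in the same order, where 6.63% of all genes tested were. Their medians lay between -0.09 and 0.04. Kcnh7 and Htr2a had the smallest p, and both passed in edgeR with the replicate block (adjusted p = 0.0104 and 0.0125). With a library left out, their log2 fold changes ran from 0.62 to 1.20 and from 0.72 to 1.30. Htr2a, a serotonin receptor, had 44.3 and 30 CPM in the Control libraries against 73.3 and 73.8 CPM in Kat6a-cKO (1.00 ± 0.19, SE, adjusted p = 0.0639, and 0.234 without doublets). Kcnh7, a potassium channel of the ERG family, had 159 and 117 CPM in the Control libraries against 210 and 314 CPM in Kat6a-cKO (0.94 ± 0.18, SE, adjusted p = 0.0591), and 0.54 without doublets (adjusted p = 0.554).

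Wnt genes of CA2 nuclei gave no call. Of the 52 genes of the R-spondin and Wnt list, 19 were tested and none passed in edgeR or DESeq2 (2 of 19 at an unadjusted p under 0.05, beside 6.63% of all genes), with a median of 0.01. Rspo2, a secreted amplifier of Wnt signalling, had 21.9 and 24.9 CPM in the Control libraries against 17.8 and 40.4 CPM in Kat6a-cKO, so the groups overlapped (0.36 ± 0.30, SE, adjusted p = 0.918). The doublets held 25% of its Kat6a-cKO counts, and without them the log2 fold change was 0.03 (adjusted p = 0.995). In CA3-like nuclei Rspo2 had a log2 fold change of -0.65 (adjusted p = 0.157), and the difference of CA2 from CA3-like nuclei was 1.03 ± 0.30 (SE, adjusted p = 0.419). Its level in CA2 was below that in CA3-like nuclei in Control, where the latter had 67.5 and 57.6 CPM.

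Of the genes for KAT6A and its relatives and partners, 8 of 11 were tested, with log2 fold changes of -0.38 to 0.37. Of 20 immediate early genes 10 were tested, and of 21 neurotrophin and FGF genes 14. Of the 12 ribosomal protein genes 10 were tested, with a median of -0.42, and 9 were lower in both Kat6a-cKO libraries (17.7% of all genes tested were, and 18.2% were higher in both). The 3 of smallest p, Rpl34, Rplp1 and Rps19, were lower in both Kat6a-cKO libraries in CA3-like nuclei, CA1-like nuclei and free RNA too. The log2 fold change of Rpl34 was -1.45 in CA2, -1.19 in CA3-like and -1.25 in CA1-like nuclei, where it passed (edgeR, adjusted p = 0.0389). Of the 9 mitochondrial genes 5 were tested, with a median of -0.53, and 1 was lower in both Kat6a-cKO libraries. With a library left out, the log2 fold change of mt-Nd1 ran from -1.32 to -0.22. In these 5 lists no gene passed in CA2 nuclei in the main edgeR fit or DESeq2. In that edgeR fit 0, 2, 1, 1 and 1 genes had an unadjusted p under 0.05, beside 6.63% of all genes tested. The libraries differed in droplets of 100 to 500 UMIs, which hold free RNA. These numbered 30213 and 17279 in the Control libraries against 63938 and 69532 in Kat6a-cKO. In these droplets every gene called higher in CA2 nuclei was higher in both Kat6a-cKO libraries too, and Spon1 overlapped. Tnr had 127 and 111 CPM there in Control against 195 and 181 CPM in Kat6a-cKO. In Control, Gm3279, Ldb2, Cntn5, Cntn4, Ntng1 and Zfpm2 had a higher level there than in CA2 nuclei, Gm3279 with 1 CA2 count per library. Col11a1, Rbms1, Tnr and Plcl1 had a lower one. In Kat6a-cKO, Gm3279 had 8.5 and 9.86 CPM in these droplets against 21.9 and 16.2 CPM in CA2 nuclei. Zfpm2 had 233 and 215 CPM against 256 and 232 CPM. Ldb2, Cntn5, Cntn4 and Ntng1 were higher in the droplets in Kat6a-cKO too. The part of free RNA in these results was not tested.

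The change in CA2 was set against that in each neighbouring class by testing the difference of the changes, with the library as a block. Between CA2 and CA3-like nuclei 8 of 14029 genes passed (0.057%), 4 with a higher change in CA2 (0.0285%) and 4 with a lower one (0.0285%). Between CA2 and CA1-like nuclei 1 of 14167 passed (0.00706%), Kcnh7, a potassium channel, with a difference of 0.94 ± 0.12 (SE, adjusted p = 0.042). That call ended without doublets (0.55, adjusted p = 0.624) and with another scaling (RLE). At an unadjusted p under 0.05 these comparisons gave 724 genes (5.16%) and 697 genes (4.92%).

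Zfpm2 and Spon1 were called in CA2 and differed from CA3-like nuclei. Zfpm2 had 784 and 762 CPM in the Control libraries against 725 and 753 CPM in Kat6a-cKO CA3-like nuclei, a log2 fold change of -0.06 ± 0.07 (SE). The difference to CA2 was 0.91 ± 0.12 (SE, adjusted p = 0.000324), and 0.95 without doublets (adjusted p = 0.000267). Spon1 had between 10.9 and 12.2 CPM in all CA3-like libraries. The difference was -1.47 ± 0.24 (SE, adjusted p = 0.00685), and -1.65 without doublets (adjusted p = 0.00661).

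CA1-like nuclei gave other values for the same genes. There Zfpm2 had a log2 fold change of 0.62 ± 0.10 (SE, adjusted p = 0.136), and the difference to CA2 was 0.23 ± 0.13 (SE, adjusted p = 0.995). Spon1 had 222 and 267 CPM in the Control libraries against 207 and 206 CPM in Kat6a-cKO CA1-like nuclei, and its difference to CA2 was -1.35 ± 0.27 (SE, adjusted p = 0.242). Col11a1 had a log2 fold change of 0.02 ± 0.12 (SE) in CA1-like nuclei. In CA3-like nuclei it was 2.27 ± 0.57 (SE, adjusted p = 0.244), with 26.2 and 24.8 CPM in the Control libraries against 204 and 39.6 CPM in Kat6a-cKO, so the 2 Kat6a-cKO libraries lay far apart. Tnr was higher in both Kat6a-cKO libraries in CA3-like nuclei (0.25) and in CA1-like nuclei (0.39) too. Its differences to CA2 did not pass the edgeR interaction test (adjusted p = 0.311 and 0.995). Plcl1 had log2 fold changes of 0.20 in CA3-like and 0.16 in CA1-like nuclei, and its CA1-like libraries overlapped.

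A further 4 genes, Egfem1, Xkr6, Plxdc2 and Man1a, differed from CA3-like nuclei without a call in CA2. Egfem1, a protein with EGF-like domains, was far higher in CA2 than in CA3-like nuclei, with 3200 and 2913 CPM in the Control libraries against 3084 and 2803 CPM in Kat6a-cKO. Its log2 fold change in CA2 was -0.06, and in CA3-like nuclei, with 47.5 and 45.8 CPM in the Control libraries against 112 and 59.2 CPM in Kat6a-cKO, it was 0.88. Xkr6, of the XK family of membrane proteins, had 221 and 258 CPM in the Control libraries against 173 and 176 CPM in Kat6a-cKO CA2 nuclei, a log2 fold change of -0.46. In CA3-like nuclei it had 52.5 and 48.2 CPM in the Control libraries against 61.9 and 66.8 CPM in Kat6a-cKO, one of 0.36, and the difference in the joint fit was -0.82 ± 0.14 (SE, adjusted p = 0.00685). Plxdc2, a membrane protein with a plexin domain, had 47.8 and 21.7 CPM in the Control libraries against 14.4 and 12.8 CPM in Kat6a-cKO CA2 nuclei. Its log2 fold change was -1.33 in CA2 and 0.37 in CA3-like nuclei, and the difference in the joint fit was -1.66 ± 0.30 (SE, adjusted p = 0.0116). Egfem1, Xkr6 and Plxdc2, with Zfpm2 and Spon1, passed without doublets too, and the other 3 (Cntn4, Cntn5 and Man1a, a mannosidase of the CA1 list) did not.

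**Figure D5:**
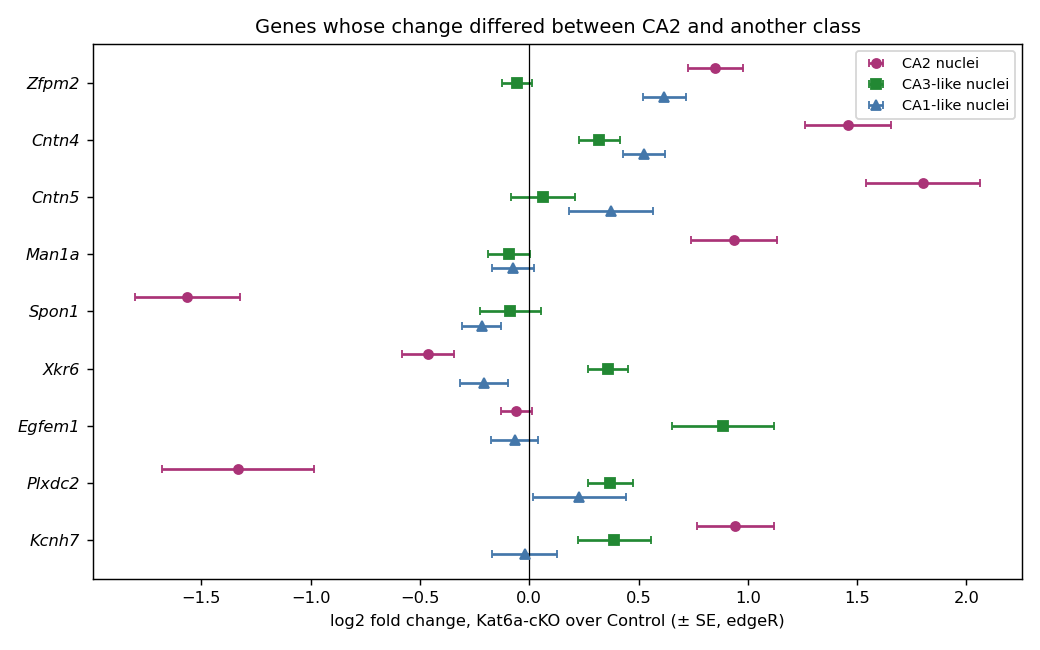
Log2 fold change (± SE, edgeR) of the 9 genes whose change differed between CA2 nuclei and CA3-like nuclei (first 8) or CA1-like nuclei (Kcnh7), in each of the 3 classes. Without doublets the difference did not pass for Cntn4, Cntn5, Man1a and Kcnh7. Spon1 lies at -1.56 in CA2 and near 0 in CA3-like nuclei, and Zfpm2 at 0.85 in CA2 and near 0 in CA3-like nuclei.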

How the data were processed

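The authors deposited raw counts per gene and barcode for all droplets, as whole numbers, per the files' own values. The submitters' processing notes name the build mm10 and Seurat 4.0.1, without a role. The aligner, annotation, counting strand and UMI handling are not given in the sources used here, so overlapping and antisense genes cannot be told apart. Gene IDs were named by a table of Ensembl IDs (54587 by ID and version, 567 by ID, 268 not named), and positions are those of GENCODE M21 (GRCm38) where ID and version match.

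Library totals were 186897245 and 183440076 counts in Control and 177249737 and 171323466 in Kat6a-cKO. Barcodes of at least 5000 UMIs were called nuclei. Scrublet (scanpy 1.11.5, expected rate 0.06) called doublets, which were left in the CA2 nuclei and out of the comparison classes. Nuclei with low Prox1, Gad1 and Gad2 (19754) were clustered by Leiden (leidenalg 0.10.2, resolution 1, seed 0) on 30 components of 2000 genes, with 425 listed genes left out. A cluster took a name when 50% of that name's markers, and no fewer than 3, reached a 2-fold higher level.

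Counts were summed per library and tested with edgeR 4.0.16 in R 4.3.3 (quasi-likelihood, TMM, filterByExpr, Benjamini-Hochberg over all genes, 0.05), without a block. CPM are plain. The rule genes, Prox1, Gad1 and Gad2 were not tested. On simulated counts for 9391 genes in CA2 nuclei, a log2 change of 1 was called for 103 of 187 genes and a log2 change of 2 for 176 of 191. Of the unchanged genes 5 and 4 were called, and 0 where none was changed. The simulated counts followed the dispersion trend fitted to these same data and held no doublets, so they say nothing on doublets. The members and all lists were chosen with earlier results of these data known. Named genes were Kat6a, cre, Neurod6, Gm3279 and Rspo2, up to 10 largest rises and falls past the threshold, the 3 of smallest p in each list, up to 5 differences between classes in each direction, and the 12 highest and 8 lowest ratios of levels. Alternatives were RLE and DESeq2 1.42.0, no filter, a replicate block, each library left out, stricter membership (at least 4 genes and 10 UMIs), no doublets, members inside the CA2-like cluster and, added after seeing the data, the whole cluster.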

Additional observations from a re-analysis of the deposited data

Results flagged for a closer look

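The genes below are listed because their change with genotype differed between CA2 nuclei and a neighbouring class by the edgeR interaction test at an adjusted p of 0.05. The differences in log2 fold change from CA3-like nuclei were 0.91 for Zfpm2, 1.16 for Cntn4, 1.74 for Cntn5, 1.06 for Man1a, -1.47 for Spon1, -0.82 for Xkr6, -0.87 for Egfem1 and -1.66 for Plxdc2. The difference from CA1-like nuclei was 0.94 for Kcnh7 (adjusted p = 0.042). Without doublets, adjusted p was 1 for Cntn4, 0.834 for Cntn5, 1 for Man1a and 0.624 for Kcnh7. The 4 doublets held 44.3% of the Kat6a-cKO counts of Man1a and 30.7% of those of Kcnh7. In the whole CA2-like cluster, Zfpm2 (adjusted p = 0.00186), Spon1 (0.0472), Xkr6 (0.0105) and Egfem1 (0.0126) passed, and Plxdc2 did not (0.163).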

How the results depend on the processing

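The 11 genes called in CA2 nuclei became 5 with DESeq2, 104 with no filter on low counts, 34 with the replicate block, 5 with stricter membership, 6 with members inside the CA2-like cluster, 6 in the whole cluster (added after seeing the data) and 1 without doublets. Leaving out 1 library gave 57 to 89. Of the 11 genes, 11 passed under the block, 5 with DESeq2 (not Ldb2, Cntn5, Ntng1, Col11a1, Rbms1 and Spon1), 2 with stricter membership and 10 (not Ldb2) without Kat6a-cKO replicate 2. The labels do not say whether the same replicate number in both groups pairs libraries. The correlation of their deviations was 0.046 over 4365 genes, which cannot settle a pairing, since counting error lowers it too. The 8 differences from CA3-like nuclei became 53 with no filter, 3 with stricter membership, 15 inside the cluster, 5 in the whole cluster, 5 without doublets and 9 to 51 with a library left out. The 1 difference from CA1-like nuclei became 69, 24, 4, 2, 0 (668 at an unadjusted p under 0.05) and 14 to 39 in the same order, and 0 with RLE (711 at an unadjusted p under 0.05). The difference in share of nuclei went from -0.0421 to -0.193 percentage points among nuclei with low Prox1 and Gad as denominator, and ran from -0.148 to 0.0638 with a library left out. Log2 fold changes turned for Kat6a (0.11 with stricter membership, -0.25 to 0.047 with a library left out), Rspo2 (-0.11 in the whole cluster, -0.49 with stricter membership, -0.39 to 0.78 with a library left out), Cntn4 (-0.43 with stricter membership) and Grm8 (-0.12 in the whole cluster, -0.25 to 2.34 with a library left out, -0.26 without doublets). The cause was not tested. Over single genes and settings, 538 values kept direction and side of the threshold, 37 lost the threshold, 23 gained it and 9 turned. With 1459130 to 2168267 counts per library in CA2 nuclei, genes of few counts were not tested.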
